A study of Homo sapiens with 6 samples.

Results

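The nuclear-encoded subunits of oxidative phosphorylation were examined in RNA-seq data from MDA-MB-468, a human breast cancer cell line of the triple-negative, basal-like kind. Genes were taken from the deposited count table by symbol: those of the NDUFA, NDUFB, NDUFC, NDUFS and NDUFV series, SDHA to SDHD, the UQCR genes, the COX4 to COX8 genes and the ATP5 genes, together with CYC1 and CYCS. The pattern found 83 genes among the 31122 rows of the table, after 10 pseudogene rows were left out. The pattern uses no measured value. By complex, 36 of the genes belonged to complex I, 4 to complex II, 9 to complex III, 15 to complex IV and 16 to complex V. CYCS, the mobile carrier cytochrome c, was kept apart, and so were ATP5S and ATP5SL, 2 genes that carry the ATP5 name without coding for a subunit of the enzyme. NDUFA4 was counted with complex IV, where its protein is now placed.

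The study compared 3 libraries labelled GPR52 KO with 3 libraries labelled WT. Per the series description, the KO populations were made with CRISPR-Cas9 and a single guide RNA to GPR52, which codes for a G protein-coupled receptor without a known ligand, and Sanger sequencing found indels in them. The WT libraries were described as parental cells grown in wells of 1 plate, and no further treatment is named for either group. Whether these populations are clonal, and how far they share an origin, is not stated in the labels, and a control with a non-targeting guide was not analysed here. The p-values therefore measure a spread between libraries that may in part be technical.

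Oxidative phosphorylation takes place in the inner mitochondrial membrane. Complex I (NADH dehydrogenase) and complex II (succinate dehydrogenase) pass electrons to ubiquinone, complex III passes them to cytochrome c, and complex IV (cytochrome c oxidase) passes them to oxygen, while complexes I, III and IV pump protons that drive ATP synthesis by complex V. All of these except complex II also hold a few subunits encoded by mitochondrial DNA, so that both genomes have to supply parts of 1 enzyme. The nuclear genes lie scattered over the chromosomes, and the transcription factors NRF1 and GABPA are known to bind the promoters of many of them.

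The targeted gene went against the label. GPR52 had 645, 694 and 724 counts in the libraries labelled KO, against 9, 1 and 0 counts in those labelled parental (log2 fold change 7.70, SE 0.35, edgeR adjusted p = 4.1e-06; 10.12 without parental-labelled 1 and 7.07 without parental-labelled 3, which held 9 and 0 of those few counts). For this reason the libraries are named by their labels, as KO-labelled and parental-labelled, and a direction always is that of the KO-labelled ones. Total counts were 25983764 to 27956600 in the KO-labelled libraries and 25637794 to 31692454 in the parental-labelled ones, so that 1 count was worth 0.0321 to 0.0397 CPM, the counts scaled to library size. The 5 epithelial markers summed to 4352 to 5083 CPM in KO-labelled and 5139 to 5657 CPM in parental-labelled libraries, and the 5 basal-like markers to 6218 to 9905 CPM and 6240 to 6545 CPM. The epithelial markers went different ways, with log2 fold changes of 0.46 for EPCAM, -0.0057 for KRT19, -0.37 for KRT8, -0.42 for CDH1 and -0.46 for KRT18. The basal-like sum was led by EGFR, at 4560, 4927 and 8307 CPM in the KO-labelled libraries and an average of 5114 CPM in the parental-labelled ones. Of 3 receptor genes listed as low in triple-negative lines, 2 were counted, ESR1 and ERBB2. They summed to 103.6 to 132.2 CPM in KO-labelled and 130.1 to 135.2 CPM in parental-labelled libraries, nearly all of it ERBB2. ERBB2 was not called (log2 fold change -0.12, edgeR adjusted p = 0.33). ESR1, the oestrogen receptor gene, averaged 2.79 CPM in KO-labelled and 9.38 CPM in parental-labelled libraries. Of 4 fibroblast markers, 3 were counted, and they summed to 23.4 to 27.9 CPM in KO-labelled and 6.52 to 8.39 CPM in parental-labelled libraries, nearly all of it COL1A1, with COL1A2 at 0 in all KO-labelled libraries. The 3 leukocyte markers summed to 2.46 to 4.07 CPM and 27.3 to 37.1 CPM, nearly all of it CD14, with PTPRC at most 0.297 CPM, and the endothelial gene CDH5 averaged 0.535 and 1.40 CPM. The part of these differences in the results was not tested.

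Most subunit genes differed little between the groups, and those that changed fell more often than they rose. Of the 83 genes, 79 passed the filter on low counts and were tested, and 24 (30.4%) fell, 6 (7.59%) rose and 49 were not called. A gene was called where its adjusted p was under 0.05 in an edgeR quasi-likelihood test with Benjamini-Hochberg adjustment over all 17420 genes tested. Calls were common in this comparison: 19.8% of all tested genes were called lower, 21.0% higher and 40.8% in either direction. The subunit genes thus held a larger share of lower calls and a smaller share of higher calls than the table as a whole. Their median log2 fold change was -0.17, against 0.0089 over all genes tested, with a range of -1.16 for COX7B to 0.53 for COX5A, and 56 of the 79 values were below 0. In bulk RNA, fewer transcripts per cell and a change in the mix of cells cannot be told apart.

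Counted without a model, 40 subunit genes had all 3 KO-labelled values below all 3 parental-labelled values and 6 had them all above, against 27.1% and 27.4% of all tested genes. All 30 called genes were among these 46 genes. The fit to the authors' FPKM values, which are scaled by transcript length and library size, called 18 of the 79 lower and 7 higher, where 15.9% and 20.1% of 15310 genes were called. Tested against a change of 1.5-fold rather than against none, 4 genes were called lower (COX7B, ATP5C1, NDUFB11 and ATP5G3) and 0 higher. The count of lower calls was 38 without KO-labelled 3 and 15 without parental-labelled 3, and the count of higher calls was 1 without parental-labelled 1, 1 without parental-labelled 2 and 3 without parental-labelled 3. The number of calls over all genes also varied widely between these fits, as given at the end, so these counts were not read against a fixed share. Of the 30 calls, 15 held in all 6 fits that left out 1 library, and all 15 were genes that fell.

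The complexes had unequal shares of called genes. Lower calls made up 50% of the tested genes in complex IV, 43.8% in V, 25.7% in I, 25% in II and 11.1% in III. Over all tested genes that share was 19.8%, so complexes IV and V stood furthest above it. Higher calls made up 16.7% in complex IV, 6.25% in V, 2.86% in I, 0% in II and 11.1% in III, against 21.0% of all tested genes. Complex IV had the lowest median log2 fold change, at -0.34 over 12 tested genes, with 6 called lower and 2 higher. Complex V followed at -0.18 over 16 genes, with 7 lower and 1 higher. Complex II stood at -0.14 over 4 genes, with 1 lower and 0 higher, complex III at -0.12 over 9 genes, with 1 in each direction, and complex I at -0.11 over 35 genes, with 9 lower and 1 higher. These medians and shares describe groups of unequal size and were not tested against each other.

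Summed over its tested genes, complex IV reached 1241, 1265 and 1306 CPM in the KO-labelled libraries, against 1578, 1578 and 1633 CPM in the parental-labelled ones, which is 79.6% of the parental-labelled mean. Complex V reached 2032, 2061 and 2115 CPM, against 2574, 2537 and 2631 CPM, or 80.2%. For both, every KO-labelled sum lay below every parental-labelled sum. Complex I came to 93.2% (2065 ± 68.4 against 2215 ± 94.4 CPM, SD, n = 3 each), complex III to 93.1% (means of 852 and 915 CPM) and complex II to 95.7% (515 ± 18.7 against 538 ± 6.40 CPM). Over all 79 tested genes, CYCS, ATP5S and ATP5SL among them, the sum was 7028 ± 192 CPM in KO-labelled and 8071 ± 195 CPM in parental-labelled libraries, or 87.1%. A sum in CPM is led by its most abundant transcripts: ATP5B, ATP5A1 and SDHA weigh most in theirs.

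**Figure D1:**
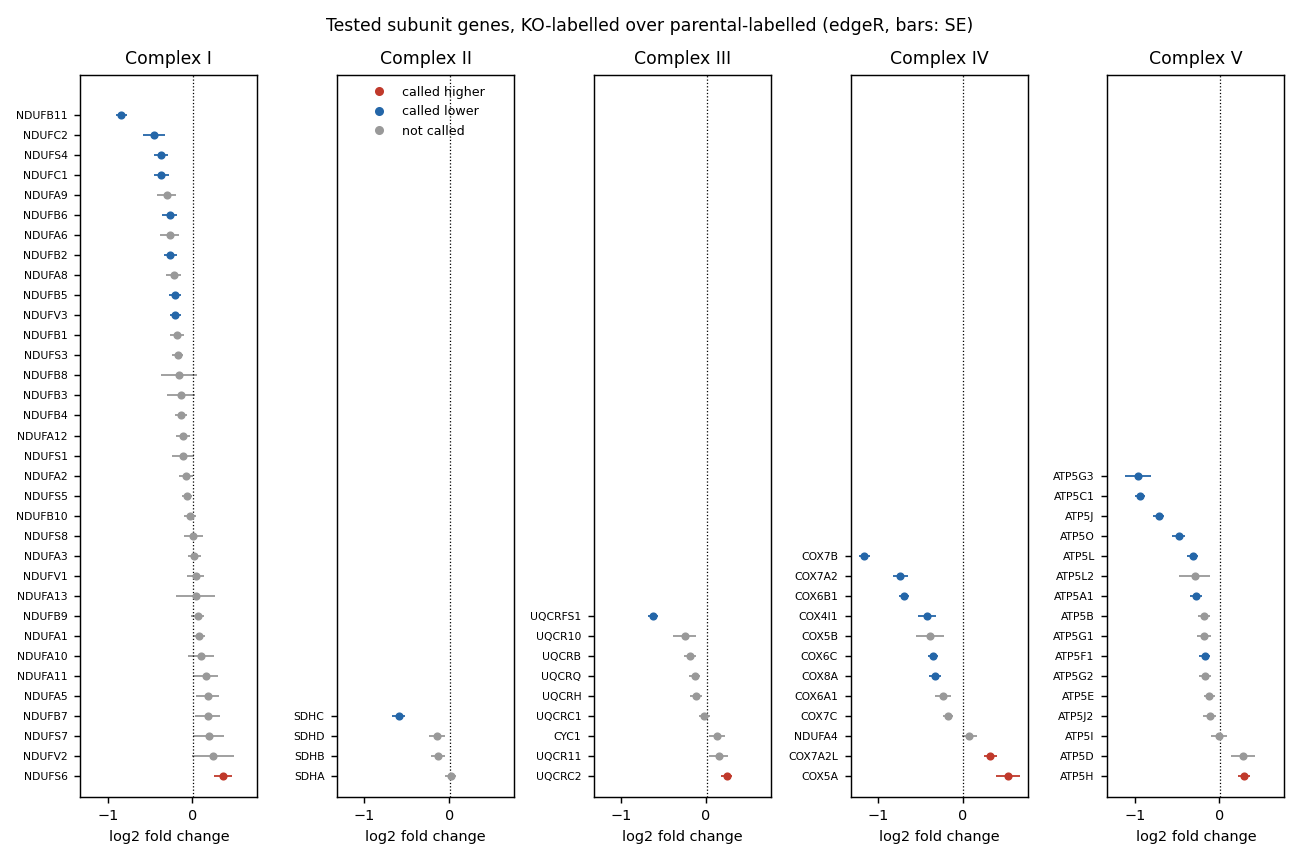
Log2 fold change of each tested subunit gene, KO-labelled over parental-labelled, with its SE as a bar, in 1 panel per complex and in order of size (edgeR, 3 libraries a group), with 1 complex I gene not shown and the median over all tested genes (0.0089) as a dotted line. Blue points are genes called lower, red points genes called higher and grey points genes not called: complexes IV and V have most of their points left of 0, down to -1.16 for COX7B, while most points of complex I lie close to 0.

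Promoter sequences were read for 6 called genes, because the members changed in both directions and the binding motifs of their known regulators can be looked up. RefSeq windows of 250 bases before to 50 bases after the gene start were found for 67 of the 83 genes. The NRF1 core, which reads GCGC, then any base, then TGCGC, was searched on both strands. It was present in 16 of these windows (23.9%), against 5.78% of all 35116 windows. The ETS core CCGGAAGT, the motif of the GABPA family, was present in 9 (13.4%), against 4.14% of all windows. Within the 67 genes, the NRF1 core was found in 3 of 18 called lower (16.7%), in 0 of 6 called higher and in 12 of 39 not called (30.8%). It was also found in COX8C, 1 of the genes with a window that were not tested. Of the 24 genes called lower, only these 18 had a window. The ETS core was found in 1 of 18 called lower (5.56%), in 1 of 6 called higher (16.7%) and in 7 of 39 not called (17.9%). The 150 bases before the start of COX7B (chrX:77899318-77899467, plus strand), ATP5C1 (chr10:7788027-7788176, plus strand), ATP5O (chr21:33915805-33915954, minus strand) and UQCRFS1 (chr19:29213152-29213301, minus strand), which fell, and of ATP5H (chr17:75046970-75047119, minus strand) and COX5A (chr15:74938074-74938223, minus strand), which rose, are given from RefSeq on GRCh38.p14, 5′ to 3′ on the gene's strand, with a motif match in capitals.
COX7B: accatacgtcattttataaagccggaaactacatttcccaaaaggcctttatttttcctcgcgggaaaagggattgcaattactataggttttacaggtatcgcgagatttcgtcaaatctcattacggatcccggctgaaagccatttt
ATP5C1: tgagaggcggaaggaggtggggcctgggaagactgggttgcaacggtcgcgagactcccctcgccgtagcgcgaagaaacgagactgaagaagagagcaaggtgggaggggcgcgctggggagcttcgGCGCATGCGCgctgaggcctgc
ATP5O: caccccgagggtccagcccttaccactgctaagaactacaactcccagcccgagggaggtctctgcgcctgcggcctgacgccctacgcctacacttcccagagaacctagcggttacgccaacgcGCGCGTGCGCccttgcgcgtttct
UQCRFS1: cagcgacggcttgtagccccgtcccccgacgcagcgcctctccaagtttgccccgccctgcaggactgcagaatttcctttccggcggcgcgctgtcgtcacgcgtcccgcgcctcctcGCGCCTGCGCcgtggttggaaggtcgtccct
ATP5H: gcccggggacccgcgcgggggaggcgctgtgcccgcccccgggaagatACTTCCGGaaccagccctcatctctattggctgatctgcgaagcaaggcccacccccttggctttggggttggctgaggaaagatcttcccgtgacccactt
COX5A: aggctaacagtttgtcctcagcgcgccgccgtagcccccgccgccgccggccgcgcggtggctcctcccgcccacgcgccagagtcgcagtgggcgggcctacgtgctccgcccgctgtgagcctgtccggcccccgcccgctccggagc
The capitals mark an NRF1 core in the ATP5C1, ATP5O and UQCRFS1 promoters and an ETS core, read on the opposite strand, in the ATP5H promoter. These are the only genes called lower with an NRF1 core and the only gene called higher with an ETS core, so the printed promoters overstate how common both are. COX7B and COX5A, the genes at both ends of the range, held neither string of letters in these 150 bases. A match or its absence is a description of the letters and says nothing of binding in these cells.

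Complex I is built of an N module, where NADH is oxidised, a Q module, where ubiquinone is reduced, and a long membrane arm that pumps protons. The N module had 2 lower and 1 higher call among 8 tested genes and the membrane arm 6 lower calls among 20, where 19.8% of all tested genes were called lower and 21.0% higher. In the N module the summed level was 566 ± 22.2 CPM in KO-labelled and 564 ± 30.6 CPM in parental-labelled libraries, and in the membrane arm 1117 ± 28.9 and 1198 ± 50.4 CPM (SD, n = 3 each).

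NDUFB11, an X-linked accessory subunit of the membrane arm, had 39.1, 39.5 and 39.6 CPM in the KO-labelled libraries, against 69.5, 69.0 and 73.2 CPM in the parental-labelled ones. It was at 55.9% of the parental-labelled mean, with tight values in both groups (log2 fold change -0.84, SE 0.07, edgeR adjusted p = 6.3e-05). In a later annotation, 44.9% of its exonic bases lie opposite RBM10, so the strand setting of the counting, which is not given in the sources used here, bears on its level. NDUFS4, an N module subunit needed for a stable enzyme, had 24.9, 24.6 and 23.6 CPM, against 30.5, 30.5 and 33.9 CPM (log2 fold change -0.38, SE 0.08, edgeR adjusted p = 0.0078).

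NDUFC2, another membrane arm subunit, had 22.0, 22.3 and 16.2 CPM in the KO-labelled libraries, against 28.2, 26.6 and 28.0 CPM in the parental-labelled ones. The groups did not overlap, and KO-labelled 3 stood below the other two (log2 fold change -0.45, SE 0.13, edgeR adjusted p = 0.024). This call was lost when a parental-labelled library was left out, with an adjusted p of 0.080 without parental-labelled 1, 0.058 without parental-labelled 2 and 0.069 without parental-labelled 3, and it was not made on FPKM (limma adjusted p = 0.0997). NDUFC1, NDUFB6, NDUFB2, NDUFB5 and NDUFV3 also fell, by smaller amounts, with log2 fold changes of -0.37 for NDUFC1, -0.27 for NDUFB6, -0.26 for NDUFB2, -0.21 for NDUFB5 and -0.20 for NDUFV3. For each of these genes all KO-labelled values lay below all parental-labelled values, but the calls were often lost when 1 library was left out. NDUFB6, NDUFB5 and NDUFV3 were called only without KO-labelled 3 among the 6 fits that left out 1 library, with adjusted p of 0.055 to 0.11 for NDUFB6, 0.059 to 0.14 for NDUFB5 and 0.065 to 0.14 for NDUFV3 in the other 5. NDUFB2 was called without KO-labelled 3 and without parental-labelled 2, with 0.054 to 0.088 otherwise, and NDUFC1 was lost only without parental-labelled 3 (0.052). NDUFB6 and NDUFV3 were not called on FPKM (limma adjusted p = 0.16 and 0.30).

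NDUFS6, a zinc-binding subunit of the N module, was the only complex I gene called higher. It had 101, 115 and 130.3 CPM in the KO-labelled libraries, against 88.0, 82.5 and 98.9 CPM in the parental-labelled ones. The lowest KO-labelled value was close to the highest parental-labelled one (log2 fold change 0.36, SE 0.11, edgeR adjusted p = 0.031). The call was lost without KO-labelled 2 (adjusted p = 0.072), without parental-labelled 1 (0.11) and without parental-labelled 2 (0.13). Of the core subunits that carry the electrons, NDUFV1, the FMN-binding subunit, had 201, 199.6 and 166 CPM, against 173, 176 and 203 CPM, with overlapping groups (log2 fold change 0.036, edgeR adjusted p = 0.80). NDUFS1, the largest core subunit, had 94.4, 99.1 and 137 CPM, against 120.3, 118 and 119 CPM. In 2 of the KO-labelled libraries NDUFS1 was below all parental-labelled values and in KO-labelled 3 above them (log2 fold change -0.11, edgeR adjusted p = 0.54). NDUFA10 and NDUFB3, both accessory subunits, had the same layout, with 110.3 and 46.2 CPM in KO-labelled 3, against 72.5 to 74.4 CPM and 30.0 to 30.4 CPM in the other KO-labelled libraries.

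Some complex I genes could hardly be read from the count table. Over the tested subunit genes, the median ratio of mean CPM to mean FPKM was 0.664, and 4 genes lay below 10% of that ratio. NDUFA7 had 3, 4 and 6 counts in the KO-labelled libraries and 6, 2 and 2 counts in the parental-labelled ones, too few to be tested, while its FPKM values were 24.7, 25.7 and 25.3, against 24.5, 24.5 and 27.0. NDUFA13 had 56, 63 and 38 counts, against 64, 45 and 51, with FPKM values of 146 to 164 in KO-labelled and 158 to 172 in parental-labelled libraries. NDUFV2, a core N module subunit, had 80, 55 and 94 counts, against 75, 69 and 58, with 122 to 130.3 FPKM and 133 to 143 FPKM. NDUFA13 and NDUFV2 were thus above the median FPKM of the subunit genes (105 in KO-labelled and 110.0 in parental-labelled libraries) but near the floor of the count table, and NDUFA7 was low in FPKM as well.

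NDUFA11, the fourth, had 183, 192 and 153 counts in the KO-labelled libraries, against 158, 141 and 198 counts in the parental-labelled ones (log2 fold change 0.15, edgeR adjusted p = 0.43), and 144, 142 and 155 FPKM, against 106, 106 and 136 FPKM (limma log2 fold change 0.35, adjusted p = 0.040). It was called higher on FPKM and not on counts. Just outside the 10% limit stood NDUFB8 at 10.5% and ATP5J2 at 11.9% of the median ratio. In a later annotation (GENCODE 29), exons of other genes on the same strand cover 32.3% of the exonic bases of NDUFA7, 21.0% of NDUFA13, 28.4% of NDUFV2, 9.65% of NDUFA11 and 33.8% of NDUFB8. The part of this overlap in the low counts was not tested, and the counts of these genes are uncertain.

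**Figure D2:**
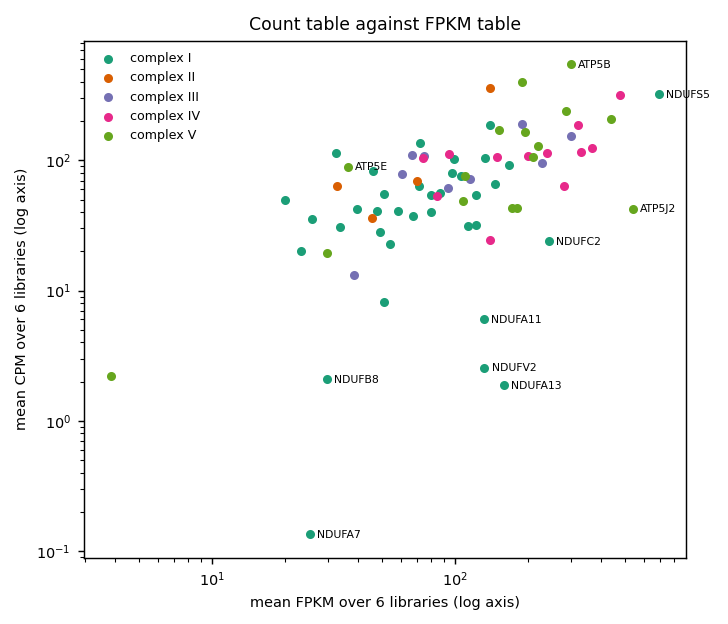
Mean CPM from the count table against mean FPKM from the authors' FPKM table for the subunit genes of complexes I to V, over all 6 libraries and on log axes, with each point a gene coloured by complex. NDUFA7, NDUFA13, NDUFV2 and NDUFA11 lie far below the other genes of like FPKM, with ratios of 0.804%, 1.77%, 2.92% and 6.94% of the median ratio.

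Complex II, which also serves the citric acid cycle, changed in 1 of its 4 subunits. SDHC, a membrane anchor that helps to bind haem and ubiquinone, had 28.6, 26.9 and 30.0 CPM in the KO-labelled libraries, against 43.2, 44.5 and 41.6 CPM in the parental-labelled ones. It was at 66.1% of the parental-labelled mean (log2 fold change -0.60, SE 0.08, edgeR adjusted p = 6.6e-04). SDHD, the second anchor, had 62.5, 65.6 and 52.8 CPM, against 64.1, 68.9 and 66.4 CPM, with overlap between the groups (log2 fold change -0.14, SE 0.09, edgeR adjusted p = 0.26). SDHB, the iron-sulphur subunit, had 61.1, 66.7 and 71.5 CPM, against 73.4, 70.8 and 74.1 CPM (log2 fold change -0.13, SE 0.08, edgeR adjusted p = 0.21; called lower without KO-labelled 3, at -0.19 and 0.036). SDHA, the flavoprotein that oxidises succinate, had 358, 340.4 and 382 CPM, against 354, 350.2 and 364 CPM (log2 fold change 0.017, SE 0.07, edgeR adjusted p = 0.86). The anchors SDHC and SDHD pair in the membrane, and their transcripts were thus at different shares of the parental-labelled level, although the difference between their changes was not tested.

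In complex III, UQCRFS1, the Rieske iron-sulphur protein that hands electrons towards cytochrome c, was the gene called lower. It had 86.7, 85.5 and 81.6 CPM in the KO-labelled libraries, against 131, 128 and 132 CPM in the parental-labelled ones, or 64.8% of the parental-labelled mean (log2 fold change -0.63, SE 0.06, edgeR adjusted p = 1.8e-04). Its promoter, printed above, holds an NRF1 core, as do those of ATP5C1 and ATP5O. No other promoter among the 18 searched of genes called lower held it (16.7%, against 30.8% of genes not called). UQCRC2, a core protein on the matrix side, had 116, 125 and 118 CPM, against 101, 104 and 99.4 CPM, without overlap (log2 fold change 0.24, SE 0.06, edgeR adjusted p = 0.018). The rise of UQCRC2 was not called when any 1 parental-labelled library was left out, with an adjusted p of 0.086 without parental-labelled 1, 0.069 without 2 and 0.076 without 3. UQCRC1, the partner core protein, had 186, 199 and 184 CPM, against 188, 189.6 and 199 CPM, with overlapping groups (log2 fold change -0.021, edgeR adjusted p = 0.82).

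CYC1, the haem protein cytochrome c1, had 71.6, 83.8 and 91.3 CPM in the KO-labelled libraries, against 73.0, 74.4 and 78.4 CPM in the parental-labelled ones (log2 fold change 0.13, edgeR adjusted p = 0.32). UQCRH, the hinge subunit that sits between cytochrome c1 and cytochrome c, had 139.8, 147 and 155 CPM, against 158, 155 and 166 CPM (log2 fold change -0.12, edgeR adjusted p = 0.21; called lower without KO-labelled 3, at -0.16 and 0.046). The remaining small subunits UQCRB, UQCRQ, UQCR10 and UQCR11 had log2 fold changes of -0.25 to 0.15 and were not called. Cytochrome c itself rose: CYCS had 186, 212 and 193 CPM, against 147, 172 and 149 CPM (log2 fold change 0.34, SE 0.09, edgeR adjusted p = 0.015). Its groups did not overlap, but the call was lost without parental-labelled 1 (adjusted p = 0.079) and without parental-labelled 3 (0.073).

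Complex IV held the gene with the largest fall of the set and the gene with the largest rise. COX7B, an X-linked small subunit needed for assembly of the enzyme, had 63.2, 67.2 and 67.8 CPM in the KO-labelled libraries, against 143, 149 and 151 CPM in the parental-labelled ones. The level was 44.7% of the parental-labelled mean, with narrow spread in both groups (log2 fold change -1.16, SE 0.07, edgeR adjusted p = 1.3e-05). COX5A, a nuclear subunit on the matrix side, had 136, 146 and 98.0 CPM, against 86.4, 85.8 and 90.2 CPM. All KO-labelled values were higher, but KO-labelled 3 was near the parental-labelled range (log2 fold change 0.53, SE 0.14, edgeR adjusted p = 0.016). The COX5A value was 0.69 without KO-labelled 3 (adjusted p = 1.2e-05), and the call was lost without KO-labelled 2 (0.053), parental-labelled 1 (0.060), parental-labelled 2 (0.060) or parental-labelled 3 (0.051).

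COX7A2, the broadly expressed form of subunit VIIa, had 92.0, 92.7 and 77.1 CPM in the KO-labelled libraries, against 144, 146 and 146 CPM in the parental-labelled ones (log2 fold change -0.74, SE 0.08, edgeR adjusted p = 3.5e-04). COX6B1, a subunit facing the intermembrane space that links the monomers of the enzyme, had 146, 141 and 142 CPM, against 231, 229 and 234 CPM (log2 fold change -0.69, SE 0.06, edgeR adjusted p = 7.7e-05). COX4I1, the common form of subunit IV, had 237, 267 and 316 CPM, against 364, 357 and 376 CPM. It fell in all 3 libraries but least in KO-labelled 3 (log2 fold change -0.42, SE 0.10, edgeR adjusted p = 0.013; not called without parental-labelled 3, at -0.41 and 0.053). COX6C and COX8A, further small subunits, also fell, with log2 fold changes of -0.35 and -0.32. The fall of COX8A was not seen in the FPKM fit (limma log2 fold change -0.082, adjusted p = 0.43), and in the later annotation 34.5% of its exonic bases are shared with another gene on the same strand.

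COX7A2L, which resembles COX7A2 in sequence and takes part in joining complex III and complex IV into supercomplexes, went the other way. It had 126, 115 and 134 CPM in the KO-labelled libraries, against 101, 98.5 and 99.4 CPM in the parental-labelled ones (log2 fold change 0.33, SE 0.07, edgeR adjusted p = 0.0091; not called without parental-labelled 2, at 0.31 and 0.053). COX5B, the zinc-binding subunit, had 39.9, 39.4 and 60.3 CPM, against 57.2, 59.8 and 65.3 CPM, with KO-labelled 3 inside the parental-labelled range (log2 fold change -0.38, SE 0.16, edgeR adjusted p = 0.094). COX6A1 had 22.4, 21.7 and 23.2 CPM, against 24.1, 25.7 and 29.3 CPM (log2 fold change -0.23, SE 0.10, edgeR adjusted p = 0.089; called lower without KO-labelled 3, at -0.26 and 0.045). COX7C and NDUFA4 had log2 fold changes of -0.18 and 0.079 and were not called.

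Several complex IV subunits exist in a common form and in a form typical of muscle, testis or lung, and the common forms made up what was counted. COX6A2, the heart and muscle form of subunit VIa, had 2, 2 and 0 counts in the KO-labelled libraries and 0 in each parental-labelled library. COX6B2, a testis form, had 1, 1 and 1 counts, against 1, 0 and 0, and COX8C had 3, 1 and 0 counts, against 1, 0 and 0. COX4I2 and COX7B2, listed with FPKM values but not with counts, stayed at or below 0.00386 FPKM. COX7A1 and the complex III gene UQCRHL were listed under these symbols neither with counts nor with FPKM values. For these rare forms no change could be read at this depth. NDUFA4L2, a relative of NDUFA4 that the symbol pattern did not cover, had enough counts to be tested and was called higher, at 0.519 ± 0.122 CPM in KO-labelled and 0.251 ± 0.0495 CPM in parental-labelled libraries (log2 fold change 1.02, SE 0.33, edgeR adjusted p = 0.038). COX7A2 and COX7A2L changed in opposite directions, and the difference between their changes was not tested.

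**Figure D3:**
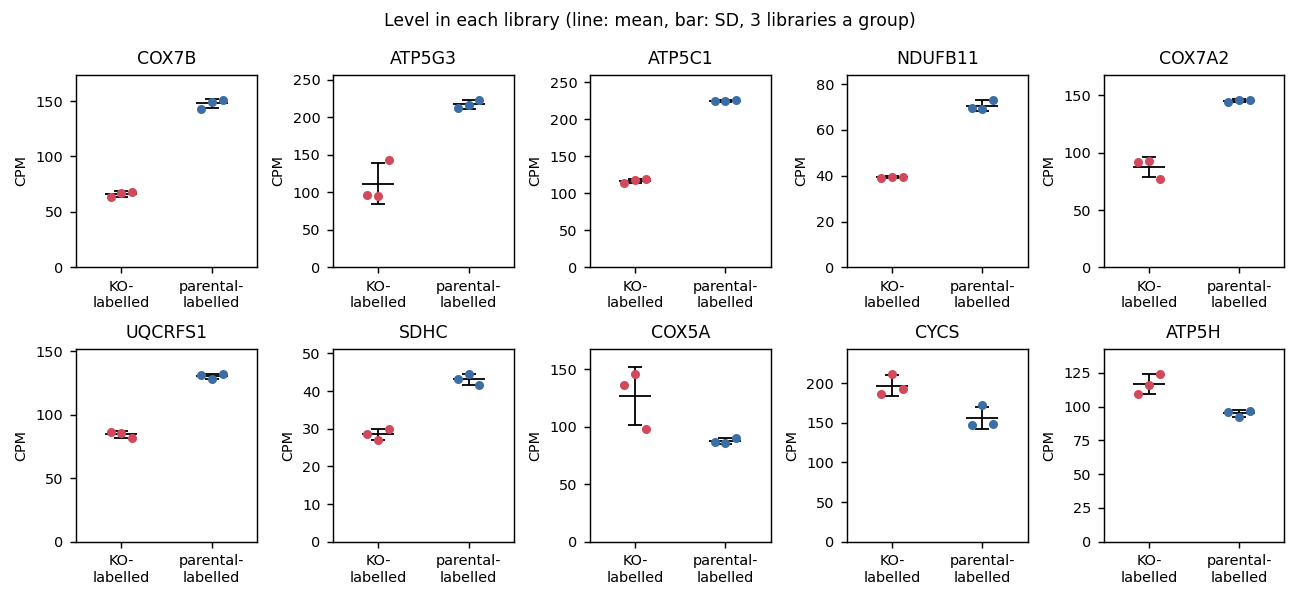
CPM in each library for 10 of the genes, CYCS among them, KO-labelled (red) left of parental-labelled (blue), with the mean as a line and the SD as a bar (n = 3 each) on linear axes from 0. COX7B, ATP5C1 and NDUFB11 show tight groups far apart, while ATP5G3 and COX5A show KO-labelled 3 apart from the other KO-labelled libraries, at 144 and 98.0 CPM.

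Complex V consists of the catalytic F1 head and the membrane part Fo, joined by a central and a peripheral stalk. Of 5 F1 genes, 2 were called lower (40%), and of 11 stalk and Fo genes, 5 were called lower (45.5%) and 1 higher (9.09%). Over all tested genes 19.8% were called lower and 21.0% higher. ATP5C1, the gamma subunit that forms the rotating central shaft, had 114, 118 and 119 CPM in the KO-labelled libraries, against 224, 224 and 226 CPM in the parental-labelled ones. It was at 52.0% of the parental-labelled mean (log2 fold change -0.94, SE 0.06, edgeR adjusted p = 2.1e-05). ATP5A1 and ATP5B code for the alpha and beta subunits, which alternate around that shaft. ATP5A1 had 386, 358 and 337 CPM, against 439, 421 and 446 CPM (log2 fold change -0.27, SE 0.07, edgeR adjusted p = 0.016). The ATP5A1 call was lost without parental-labelled 1 (adjusted p = 0.067), without parental-labelled 3 (0.054) and on FPKM (limma adjusted p = 0.059). ATP5B had 485, 496 and 555 CPM, against 587, 575 and 583 CPM, without overlap but not called (log2 fold change -0.18, SE 0.07, edgeR adjusted p = 0.069). The gamma gene was thus much further below its parental-labelled level than the alpha and beta genes it works with, a difference that was not tested.

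ATP5J and ATP5O, subunits of the peripheral stalk that are both encoded on chromosome 21, fell. ATP5J had 94.5, 100.5 and 98.0 CPM in the KO-labelled libraries, against 157, 156 and 169 CPM in the parental-labelled ones (log2 fold change -0.72, SE 0.07, edgeR adjusted p = 1.2e-04). ATP5O, also known as the oligomycin sensitivity protein, had 34.3, 38.1 and 34.5 CPM, against 47.6, 49.1 and 52.7 CPM (log2 fold change -0.48, SE 0.08, edgeR adjusted p = 0.0023). ATP5H, another peripheral stalk subunit, rose instead, with 109, 116 and 124 CPM, against 96.3, 92.1 and 96.6 CPM (log2 fold change 0.29, SE 0.07, edgeR adjusted p = 0.012). The ATP5H call was lost without parental-labelled 1 (adjusted p = 0.054) and without parental-labelled 2 (0.075). ATP5L, a membrane subunit at the dimer interface, had 189.8, 189.7 and 174 CPM, against 233, 224 and 234 CPM (log2 fold change -0.32, SE 0.06, edgeR adjusted p = 0.0056). ATP5F1, the b subunit of the peripheral stalk, had a log2 fold change of -0.18 and was called lower in 2 of the 6 fits that left out 1 library, those that left out KO-labelled 2 or KO-labelled 3 (adjusted p of 0.081 to 0.16 in the others).

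The c subunit, which forms the rotor ring in the membrane, is encoded by 3 genes that give the same mature protein: ATP5G1, ATP5G2 and ATP5G3. ATP5G3 had 96.2, 95.1 and 144 CPM in the KO-labelled libraries, against 212, 216 and 224 CPM in the parental-labelled ones. It was at 51.4% of the parental-labelled mean, with KO-labelled 3 well above the other KO-labelled libraries (log2 fold change -0.96, SE 0.15, edgeR adjusted p = 0.0018; -1.19 without KO-labelled 3). ATP5G1 had 45.9, 48.8 and 41.5 CPM, against 50.1, 51.5 and 52.5 CPM, and ATP5G2 had 74.7, 72.3 and 66.7 CPM, against 81.2, 78.2 and 81.4 CPM. Neither was called (log2 fold changes -0.18 and -0.17, SE 0.08 and 0.07, edgeR adjusted p = 0.12 and 0.087). The make-up of the c subunit transcripts thus differed between the groups. In CPM, ATP5G3 gave 44.4%, 44.0% and 57.1% of the summed level of the 3 genes in the KO-labelled libraries, against 61.8%, 62.5% and 62.6% in the parental-labelled ones, and on the FPKM scale, which is per length, 39.3% ± 7.13, against 52.4% ± 0.673 (SD, n = 3 each). ATP5G1 came to 20.1% ± 3.20 of the summed CPM, against 14.7% ± 0.160, and ATP5G2 to 34.5%, 33.4% and 26.5%, against 23.6%, 22.6% and 22.8%. The sum itself was 228 ± 20.5 CPM, against 349 ± 7.47 CPM. The 3 genes resemble each other in their coding sequence, so the split of reads between them depends on the counting.

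On the per-length scale, the most abundant of the subunit transcripts was NDUFS5, a small complex I subunit, at 688 FPKM in KO-labelled and 696 FPKM in parental-labelled libraries. ATP5J2 (519 and 559 FPKM), COX4I1 (419 and 542 FPKM), ATP5L (404 and 474.5 FPKM) and COX7C (350.5 and 386 FPKM) followed by their KO-labelled level. The median level per complex was 227 FPKM in KO-labelled and 235 FPKM in parental-labelled libraries for complex IV and 157 and 200.5 FPKM for complex V. Complex III had medians of 88.7 and 98.5 FPKM, complex I 78.8 and 81.3 FPKM and complex II 52.2 and 63.4 FPKM, so that the order of the complexes by level was the same in both groups. Transcript levels in FPKM say nothing of the number of subunits in each enzyme.

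Subunit genes tended to change the way of the genes around them on the chromosome. For each gene with a position in RefSeq, the median log2 fold change of the tested genes within 10 Mb on either side was taken as the value of its neighbourhood, with at least 20 such genes required. Over 78 subunit genes the gene's own change and that of its neighbourhood had a Pearson r of 0.79 and a Spearman rho of 0.81, against 0.28 and 0.40 over 14735 tested genes. These points share libraries and normalisation, and nearby genes share neighbours, so the correlations are a description and have no p. The subunit genes also vary less than all tested genes. Their median SD of log2 CPM was 0.095 in KO-labelled and 0.049 in parental-labelled libraries, against 0.19 and 0.086. No set of genes of like spread was compared, so the higher correlation is not shown to be particular to subunit genes. Of the 30 called genes, 27 had the sign of their neighbourhood, and the like share over all called genes was not taken.

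All 6 genes that rose stood in neighbourhoods that were higher as well. The neighbourhood medians were 0.66 for COX5A, 0.67 for ATP5H, 0.51 for COX7A2L, 0.48 for CYCS, 0.28 for NDUFS6 and 0.20 for UQCRC2. In a fit with the neighbourhood median as an offset, chosen after seeing the data, none of these 6 was called higher, with log2 fold changes of -0.13 for COX5A, -0.37 for ATP5H, -0.18 for COX7A2L, -0.15 for CYCS, 0.082 for NDUFS6 and 0.042 for UQCRC2. ATP5H was called lower in that fit (edgeR adjusted p = 0.0055). NDUFB11, whose neighbourhood on the X chromosome had a median of -0.77, had -0.071 relative to it (edgeR adjusted p = 0.44). Relative to their neighbourhoods, 32 subunit genes were called lower and 1 higher, where 17.1% and 16.5% of all tested genes were called. Genes without a neighbourhood value, NDUFA4 among them, had an offset of 0 in this fit and stayed among all tested genes. By complex, the lower calls were 10 in complex I, 3 in complex II, 2 in complex III, 5 in complex IV and 12 in complex V. The 1 higher call was NDUFB6, at 0.70 relative to a neighbourhood on chromosome 9 with a median of -0.97 (edgeR adjusted p = 6.5e-04).

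Some falls were larger than those of the neighbourhood. ATP5C1 on chromosome 10, with a neighbourhood at -0.072, had -0.87 relative to it (edgeR adjusted p = 4.1e-05). COX7B, with a neighbourhood at -0.64 on the X chromosome, had -0.52 relative to it (edgeR adjusted p = 7.5e-04). SDHA, with a neighbourhood at 0.28 on chromosome 5, was called lower relative to it, at -0.26 (edgeR adjusted p = 0.018), while its level did not differ detectably between the groups.

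**Figure D4:**
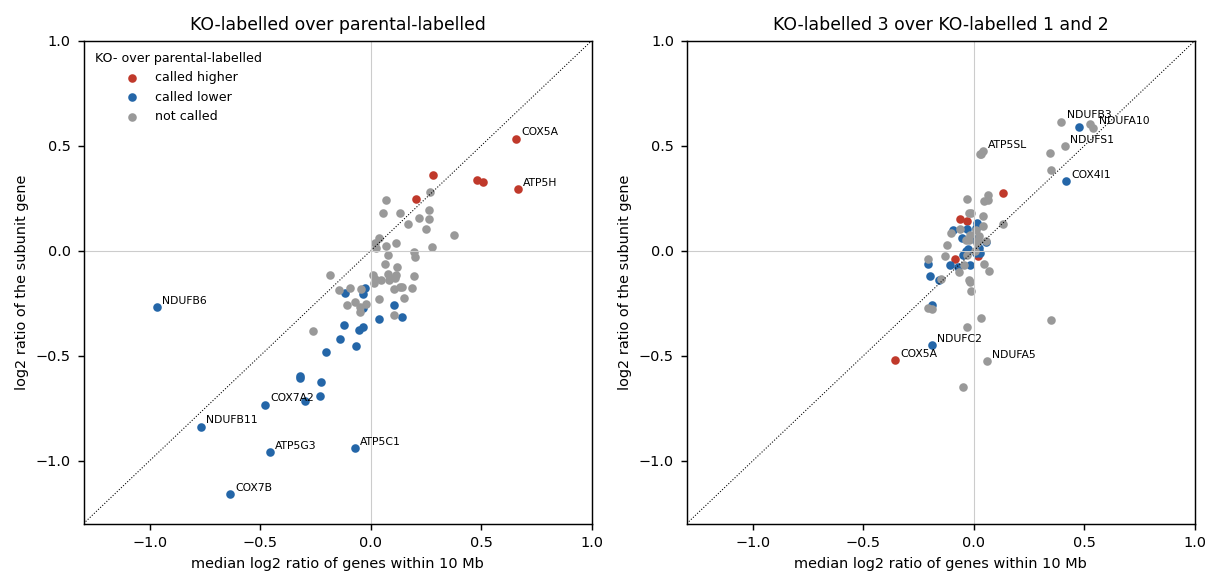
Log2 ratio of each subunit gene against the median log2 ratio of the tested genes within 10 Mb, for KO-labelled over parental-labelled libraries (left) and for KO-labelled 3 over KO-labelled 1 and 2 (right), with the dotted line where both are equal and points coloured by the call in the comparison of the groups. On the left most genes lie along a slope (r of 0.79 over 78 genes), with ATP5C1 below it and NDUFB6 above it; on the right most genes lie near 0, and a few, such as NDUFB3, NDUFA10 and COX5A, lie away from 0 with their neighbours.

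The KO-labelled libraries also differed among themselves. The SD of log2 CPM within a group had a median of 0.095 in KO-labelled and 0.049 in parental-labelled libraries over the tested subunit genes, and was wider in the KO-labelled group for 57 of 79. Over all tested genes the medians were 0.19 and 0.086, with 13298 of 17420 wider in the KO-labelled group. KO-labelled 3 stood more than 0.3 (log2) from the mean of KO-labelled 1 and 2 for 18 subunit genes, and in 9 of these the neighbourhood moved the same way by more than 0.3. The like shares over all tested genes were not taken. On chromosome 2, ATP5G3 was 0.59 higher in KO-labelled 3 with its neighbourhood at 0.48, COX5B 0.60 with 0.52, NDUFA10 0.59 with 0.54, NDUFB3 0.61 with 0.40 and NDUFS1 0.50 with 0.41. COX4I1 on chromosome 16 was 0.33 higher with its neighbourhood at 0.42, and COX5A on chromosome 15 was at -0.52 with its neighbourhood at -0.36. Others moved alone: NDUFA5, an accessory subunit of the Q module, had 41.3, 42.2 and 28.96 CPM, against 32.3, 34.2 and 33.0 CPM in the parental-labelled libraries, with its neighbourhood at 0.059 between the KO-labelled libraries. Those not moving with their neighbourhood also included ATP5S and ATP5SL, which code for no subunit. NDUFA13, NDUFV2, NDUFB8, ATP5L2 and NDUFA11 were among them too, with at most 192 counts in a KO-labelled library, so counting noise weighs more in these.

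The mitochondrially encoded subunits, the partners of the nuclear ones in complexes I, III, IV and V, were read from the same table. Of 13, 7 were called lower (53.8%, against 19.8% of all tested genes), 2 higher (15.4%, against 21.0%) and 4 not called, with a median log2 fold change of -0.26. MT-CO3, a core subunit of complex IV, had 4977, 4358 and 5359.9 CPM in the KO-labelled libraries, against 8347, 8631 and 8893 CPM in the parental-labelled ones (log2 fold change -0.82, SE 0.09, edgeR adjusted p = 0.000295). MT-ND6, a complex I subunit, had 51.5, 55.9 and 56.3 CPM, against 112, 107 and 105 CPM (log2 fold change -0.98, SE 0.07, edgeR adjusted p = 4.0e-05). MT-ND1 and MT-ND5 of the same complex rose, to 4104 ± 232 and 7590 ± 721 CPM in KO-labelled libraries, against 3129 ± 66.3 and 5826 ± 40.5 CPM in parental-labelled ones (log2 fold changes 0.39 and 0.38, edgeR adjusted p = 0.0030 and 0.0081). Mitochondrial transcripts are cut from long precursors and were measured after poly(A) selection, so their values depend on their tails as well as on their amount.

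Assembly factors, which build the complexes without staying in them, were called lower in 10 (20.4%) and higher in 7 (14.3%) of 49 genes, against 19.8% and 21.0% of all tested genes, with a median log2 fold change of -0.055. ACN9 (SDHAF3), which helps to insert the iron-sulphur clusters of SDHB, had 1, 0 and 1 counts in the KO-labelled libraries, against 109, 104 and 143 counts in the parental-labelled ones. Scaled to library size this was 170.3-fold lower, with an exact 95% interval of 46.8 to 1412 that covers counting error only (edgeR adjusted p = 1.3e-06). C6orf57 (SDHAF4), another complex II factor, had 6.26 ± 0.556 CPM, against 11.1 ± 0.344 CPM (log2 fold change -0.82, edgeR adjusted p = 0.000885), while the log2 fold change of SDHA itself was 0.017. NDUFAF4, a complex I factor, had 16.02 ± 0.505 CPM, against 26.2 ± 0.608 CPM (log2 fold change -0.71, edgeR adjusted p = 3.3e-04). COX19, a copper-related complex IV factor, and COA1 rose, with 33.6 ± 1.64 against 18.01 ± 0.947 CPM and 112 ± 2.85 against 68.03 ± 3.14 CPM (log2 fold changes 0.90 and 0.72, edgeR adjusted p = 1.4e-04 and 1.3e-04). Of 5 further genes that the symbol pattern did not cover, 2 were called lower (40%) and 1 higher (20%), against 19.8% and 21.0% of all tested genes. USMG5 and C14orf2 of complex V fell (log2 fold changes -0.46 and -0.23), and NDUFA4L2 rose, as given with complex IV. NDUFAB1 and ATPIF1 were not called.

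Among 11 tested regulators of nuclear or mitochondrial genes, 3 were called lower (27.3%, against 19.8% of all tested genes) and 2 higher (18.2%, against 21.0%). Their median log2 fold change was 0.049. NRF1 had 22.0, 23.9 and 21.1 CPM in the KO-labelled libraries, against 21.2, 21.9 and 21.7 CPM in the parental-labelled ones (log2 fold change 0.049, edgeR adjusted p = 0.68). TFAM, which packages and transcribes mitochondrial DNA, had 111, 113 and 104 CPM, against 101, 107 and 97.1 CPM (log2 fold change 0.11, edgeR adjusted p = 0.25). GABPA, the DNA-binding part of the ETS factor, fell (38.5, 37.5 and 28.5 CPM, against 47.9, 53.8 and 45.0 CPM, log2 fold change -0.49, edgeR adjusted p = 0.017), and its partner GABPB1 rose (28.3 ± 2.74 against 22.5 ± 0.753 CPM, 0.33, adjusted p = 0.025). TFB1M and TFB2M fell, by 0.94 and 0.43 on the log2 scale, and POLRMT, the mitochondrial RNA polymerase, rose by 0.40. GABPA lies opposite ATP5J on chromosome 21, and in the later annotation 23.1% of the exonic bases of ATP5J overlap GABPA or JAM2 on the other strand.

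The citric acid cycle and pyruvate entry had 9 lower (47.4%) and 4 higher (21.1%) calls among 19 genes, against 19.8% and 21.0% of all tested genes, with a median log2 fold change of -0.27. PDHA1, the X-linked E1 alpha subunit of pyruvate dehydrogenase, had 87.1, 84.5 and 85.5 CPM in the KO-labelled libraries, against 193, 196 and 195 CPM in the parental-labelled ones (log2 fold change -1.18, SE 0.06, edgeR adjusted p = 7.7e-06, neighbourhood median -0.94). FH, fumarate hydratase, fell by 0.67 on the log2 scale (edgeR adjusted p = 2.7e-04). IDH2, the NADP-linked isocitrate dehydrogenase, had 389, 421 and 253 CPM, against 182, 187 and 189.6 CPM (log2 fold change 0.93, SE 0.17, edgeR adjusted p = 0.0032), with KO-labelled 3 lowest, as for COX5A on the same chromosome. IDH3G rose by 0.34. Of 75 tested mitochondrial ribosomal protein genes, 14 were called lower (18.7%, close to the 19.8% of all tested genes) and 9 higher (12.0%, against 21.0%), with a median of -0.050, among them MRPL24 and MRPS6 (-0.79 and -0.66) and MRPS30 and MRPS11 (0.67 and 0.55).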

How the data were processed

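Poly(A) RNA from 6 MDA-MB-468 cultures was sequenced from directional libraries, per the labels' protocols. The authors deposited raw counts per gene symbol and FPKM values, 1 column per sample. The build hg19 and the tools Cufflinks 2.0.2, STAR 2.4.0f1 and SAMtools 0.1.19 are named, without their roles, in the submitters' processing notes. Annotation, counting program and strand setting were not given in the sources used here, so genes with near-identical copies, overlapping exons or antisense partners are uncertain.

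Counts were tested with edgeR 4.0.16 in R 4.3.3: filterByExpr (minimum count 10, minimum total 15), TMM, the quasi-likelihood F test with all 6 libraries and no covariate, and Benjamini-Hochberg adjustment over 17420 genes (threshold 0.05). Tested genes held 99.9% of the counts. The SE is the size of the log2 fold change divided by the square root of F. CPM use TMM library sizes, and ± is the SD of 3 libraries. FPKM were tested with limma 3.58.1 on log2(FPKM + 1) for genes with at least 1 FPKM in 3 libraries, which understates changes of low genes. Alternatives were DESeq2 size factors, upper quartile or library totals for TMM, no filter or 10 CPM in 3 libraries, DESeq2 1.42.0, limma voom, log2(FPKM + 0.1), FPKM without a filter, a test against 1.5-fold, thinning all libraries to the smallest total, and leaving out each library. The edgeR step was tested on simulated counts.

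Genes and lists were chosen with earlier results of these data known. By rule the text names, per complex, up to 4 called members in each direction with the largest change, all members of the isoform families, CYCS and SDHA to SDHD, and in each other list up to 2 called members per direction with the smallest p. Other genes were named after their values were seen, and so were chosen the neighbourhood fit (gene positions from RefSeq GRCh38.p14, found for 14754 tested genes, 84.7%, and used for neighbourhood only), the 0.3 and 10% limits and the modules of complexes I and V. Motifs were searched in RefSeq promoter windows. Of the called members of complex I, 1 is not reported here. For ACN9 the interval is exact binomial.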

Additional observations from a re-analysis of the deposited data

How the results depend on the processing

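No paired analysis was possible because the labels give the KO-labelled and the parental-labelled libraries no shared replicate numbers. Subunit genes called higher and lower numbered 6 and 24 as reported. They numbered 6 and 25 with DESeq2 size factors and with DESeq2, 6 and 20 with upper quartile scaling and with library totals, 4 and 20 without a filter, 6 and 23 with a filter of 10 CPM and with thinned counts, 6 and 24 with limma voom, and 7 and 18 with both FPKM pseudocounts. The calls over all genes varied as well. Higher and lower calls numbered 3653 and 3465 of 17420 genes with DESeq2 size factors and 4013 and 3113 with upper quartile scaling. With library totals they numbered 4093 and 3039. Without a filter they were 3440 and 3414 of 31120 genes, and with a filter of 10 CPM 2470 and 2465 of 10373. Without a filter on FPKM the count of lower calls among subunit genes was 14, and over all genes 1988. Relative to neighbours, the higher calls numbered 1. Against 1.5-fold, 0 subunit genes were called higher and 4 lower, and 1019 and 903 of all genes. Leaving out each library gave 1 to 7 higher and 15 to 38 lower subunit genes, and 2482 to 4730 higher and 2390 to 4637 lower of all genes. The median log2 fold change of complex I was -0.072 with library totals and -0.059 in the 3 FPKM fits, and that of complex IV -0.22 in these fits. Relative to neighbours it was -0.25 in complex II, -0.25 in complex IV and -0.30 in complex V. Leaving out each library, it was -0.15 to -0.061 in complex I and -0.36 to -0.30 in complex IV. SDHA, near 0 as reported, changed sign without a filter (-0.00050), without KO-labelled 3 (-0.029), without parental-labelled 2 (-0.00045) and relative to neighbours (-0.26), where ATP5H (-0.37), COX5A (-0.13), COX7A2L (-0.18) and CYCS (-0.15) also changed sign. Leaving out each library, SDHA ranged from -0.029 to 0.055. The causes were not tested. Of 504 values of 28 named members under other settings, 456 kept their direction and side of the threshold. A fit without 1 library leaves a group of 2. Each edgeR fit, the main one included, assumes a like spread in both groups. The median SD of log2 CPM over tested subunit genes was, however, 0.095 in KO-labelled and 0.049 in parental-labelled libraries. How far this bears on the calls, or on calls lost without a parental-labelled library, was not tested. With 3 libraries a group, changes of the size seen for most subunit genes may often have gone undetected, but how often was not measured. The groups of 3 were also too small for a test of single libraries as outliers.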
